A study of Mus musculus with 9 samples.

Results

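Potassium channel genes were read out of a bulk RNA-seq table of mouse heart as every row whose symbol begins with Kcn, the mouse prefix for potassium channel subunits, their auxiliary subunits and transcripts named after them. The rule found 98 of the 24964 genes in the table. The 9 libraries came from hearts of male C57BL/6JR mice aged 8 weeks, 3 libraries in each of 3 groups. In 3 hearts taken 28 d and 3 hearts taken 7 d after surgery (MI 28 d and MI 7 d), the left anterior descending coronary artery had been ligated, which deprives part of the left ventricle of blood and causes a myocardial infarction (MI). The other 3 mice went through thoracotomy without ligation (sham), and the labels do not say how long after surgery these hearts were taken. The tissue is given only as heart, so how much scar, border zone and remote muscle each sample holds is not known.

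Potassium channels let potassium leave the cell and so end the action potential and hold the resting potential. In the mouse ventricle, fast repolarization rests on the transient outward current Ito and on the slowly inactivating Kv currents. The inward rectifiers set the resting potential, the acetylcholine-gated channels slow the heartbeat mainly in atria and nodes, and the ATP-sensitive channels open when energy runs low. Other family members belong to smooth muscle, nerve, immune cells and fibroblasts, in which they set the membrane potential and with it calcium entry.

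The read counts summed to 15300344 to 15770389 in the MI 28 d libraries, 18355720 to 19238101 in the MI 7 d libraries and 12351525 to 13629120 in the sham libraries. Levels are given as CPM, the usual depth-scaled counts with TMM-scaled library totals, in the order of replicates 1, 2 and 3. The sham libraries differed from each other by a chi-square of only 1.67 to 1.8 times its degrees of freedom, against 31.4 to 71.2 times at 28 d and 18.8 to 29.3 times at 7 d. Because the sham libraries vary so little, each comparison was repeated with them summed to 1. If they were not separate mice, the p-values against sham would be too small. MI 28 d replicates 1 and 3 and MI 7 d replicate 3 held over 100 CPM of the adipocyte gene Adipoq (130.4, 122 and 217 CPM, against at most 3.12 CPM elsewhere). Of 8 atrial marker genes, 4 that include Sln, Myl7 and Bmp10 were at most 1.10 CPM in any library, and the 4 tested were all higher at both times against sham (log2 fold change 1.03 to 4.86 at 28 d and 1.22 to 5.31 at 7 d). Nppa, the most abundant of the tested atrial markers, reached 11543 to 17362 CPM at 28 d, 6953 to 10558 CPM at 7 d and 467 to 532 CPM in sham. The labels do not give a batch, and p-values measure the spread between these libraries.

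The family as a whole took a smaller share of the RNA after infarction. Summed over all Kcn rows, the level was 1125, 1001 and 785 CPM in the MI 28 d hearts, 724, 739 and 579 CPM in the MI 7 d hearts and 1862, 1890.0 and 1930.1 CPM in the sham hearts. No library of one group reached the range of another. The summed level of 20 cardiomyocyte marker genes moved alongside, with 68914 to 114570.0 CPM at 28 d, 31077 to 38691 CPM at 7 d and 180030.0 to 184630.0 CPM in sham. Fibroblast markers (10 genes) summed to 6609 to 12711, 37465 to 48815 and 2366 to 2425 CPM in the same order of groups, and macrophage markers (10 genes) to 1068 to 1637, 4952 to 6063 and 612 to 684 CPM. In bulk tissue, fewer cells of a type and less RNA per cell cannot be told apart, and the part of these cell types in each result below was not tested, apart from the ratios to cardiomyocyte markers given further on.

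Per length of exon, 5 genes made up 62.1 to 62.4% of the family's level in the sham hearts. These were the two-pore channel Kcnk3 (79.9 ± 2.96 CPM per kb, mean ± SD, n = 3), the Ito auxiliary subunit Kcnip2 (77.3 ± 0.806), the KATP pore Kcnj11 (65.97 ± 1.902), the silent subunit Kcng2 (47.6 ± 0.995) and the GIRK pore Kcnj5 (27.3 ± 0.928). Kcnk3 and Kcnip2 lay within about their spread of each other, and the other 3 were apart. At 7 d the order per kb was led by the inward rectifier Kcnj15 (25.7 ± 7.91), the β subunit Kcne4 (18.7 ± 3.86) and Kcnk3 (15.1 ± 2.41), and the ranges of Kcnj15 and Kcne4 overlapped. Kcnj15 stood at rank 17 at 28 d, 1 at 7 d and 27 in sham among the Kcn rows, and Kcnip2 at rank 4, 17 and 2. At 28 d the order was led by Kcnk3, Kcnj11 and Kcng2.

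**Figure D1:**
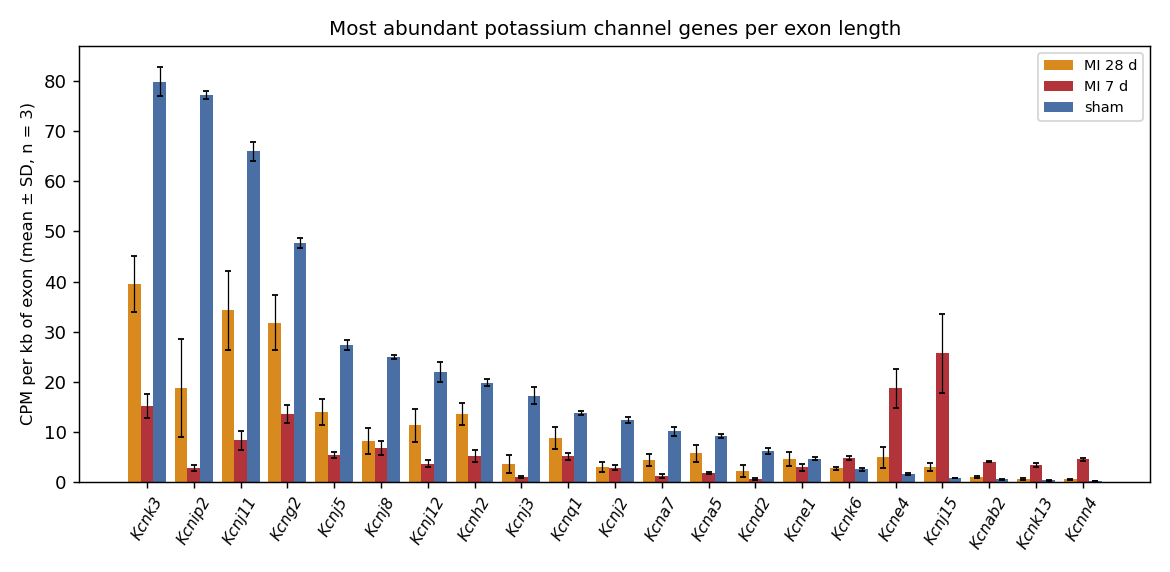
Level per kb of exon (TMM-scaled CPM per kb, linear axis from 0) of the most abundant potassium channel genes; bars are means and whiskers SD over 3 libraries of the MI 28 d (orange), MI 7 d (red) and sham (blue) hearts. Sham bars are tallest from Kcnk3 to Kcnd2, while the MI 7 d bar is tallest for Kcnk6, Kcne4, Kcnj15, Kcnab2, Kcnk13 and Kcnn4.

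Of the 98 rows, 57 had enough counts to be tested and 41 did not. At 28 d against sham, 18 of the 57 were higher and 24 lower at an edgeR adjusted p under 0.05 (31.6% and 42.1%). Of all 14347 genes tested, 29.5% were higher and 25.6% lower. Either direction was called for 55.1% of all genes. At 7 d against sham 18 were higher and 27 lower (31.6% and 47.4%), against 39.0% and 35.4% of all genes tested (74.4% in either direction). Between the MI groups 22 were higher and 10 lower at 28 d than at 7 d (38.6% and 17.5%), against 29.1% and 26.1% of all genes (55.2% in either direction). The median log2 fold change of the 57 was -0.49 at 28 d and -0.62 at 7 d against sham, and 0.54 at 28 d against 7 d, beside 0.05, 0.06 and 0.03 for all genes tested. The comparisons share libraries, so they are not independent of each other. Counts for single channel types, given below, are to be set against the same shares of all genes, and few genes of each type were tested. Without sham replicate 2 or 3, the count of higher genes at 28 d fell to 11, and with the sham libraries summed to 1 it was 6 higher and 11 lower. Summing the sham libraries ended 28 d calls that included those of Kcna1, Kcna2, Kcna4, Kcna5, Kcnab1, Kcnd2, Kcnd3, Kcne3, Kcne4, Kcng2, Kcnh1, Kcnh2, Kcnh3, Kcnip3, Kcnj12, Kcnj14, Kcnj6, Kcnk13, Kcnk2, Kcnn2, Kcnq1, Kcns3 and Kcnt2 (edgeR adjusted p 0.0564 to 0.178). At 7 d it ended those of Kcna4, Kcna6, Kcnab1, Kcne1, Kcnj14, Kcnj6, Kcnk1, Kcns3 and Kcnt2 (edgeR adjusted p 0.0644 to 0.169). Between 28 d and 7 d it ended those of Kcna1 and Kcne1 (edgeR adjusted p 0.0873 to 0.0959). In that setting the lone sham library is assumed to vary like the MI libraries.

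For the courses over the 3 groups, the share of all genes tested was not counted, so the counts that follow have no background. The most common course of the tested Kcn rows, taken by 19 genes, was lower than sham at both times and higher at 28 d than at 7 d. It included most pore subunits of cardiomyocyte currents (Kcnd2, Kcnd3, Kcna5, Kcnq1, Kcnh2, Kcnj3, Kcnj5, Kcnj11, Kcnj12, Kcnk3, Kcnn2). The opposite course, higher at both times and lower at 28 d than at 7 d, was taken by 7 genes, namely Kcnma1, Kcnn4, Kcnd1, Kcne4, Kcnj15, Kcnab2 and Kcnk13. A further 7 were higher at both times without passing between 28 d and 7 d (Kcnt2, Kcnh1, Kcnj6, Kcnj14, Kcns3, Kcne3, Kcnab1), and 4 were lower at both times without passing between them, including Kcnj2, Kcnj8 and Kcna2. Kcna4 was the 1 gene called in opposite directions against sham, higher at 28 d and lower at 7 d. Not called in any of the 3 comparisons at these settings were 7 tested rows, Kcnmb1, Kcnn3, Kcnj4, Kcng4, Kcnab3, Kcnk5 and the noncoding Kcnq1ot1. The silent subunit Kcng4 had 2, 2 and 38 counts at 28 d, most of them in replicate 3, 7, 9 and 12 at 7 d and 11, 7 and 7 in sham. Without MI 28 d replicate 3 its log2 fold change at 28 d against sham was -2.44.

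**Figure D2:**
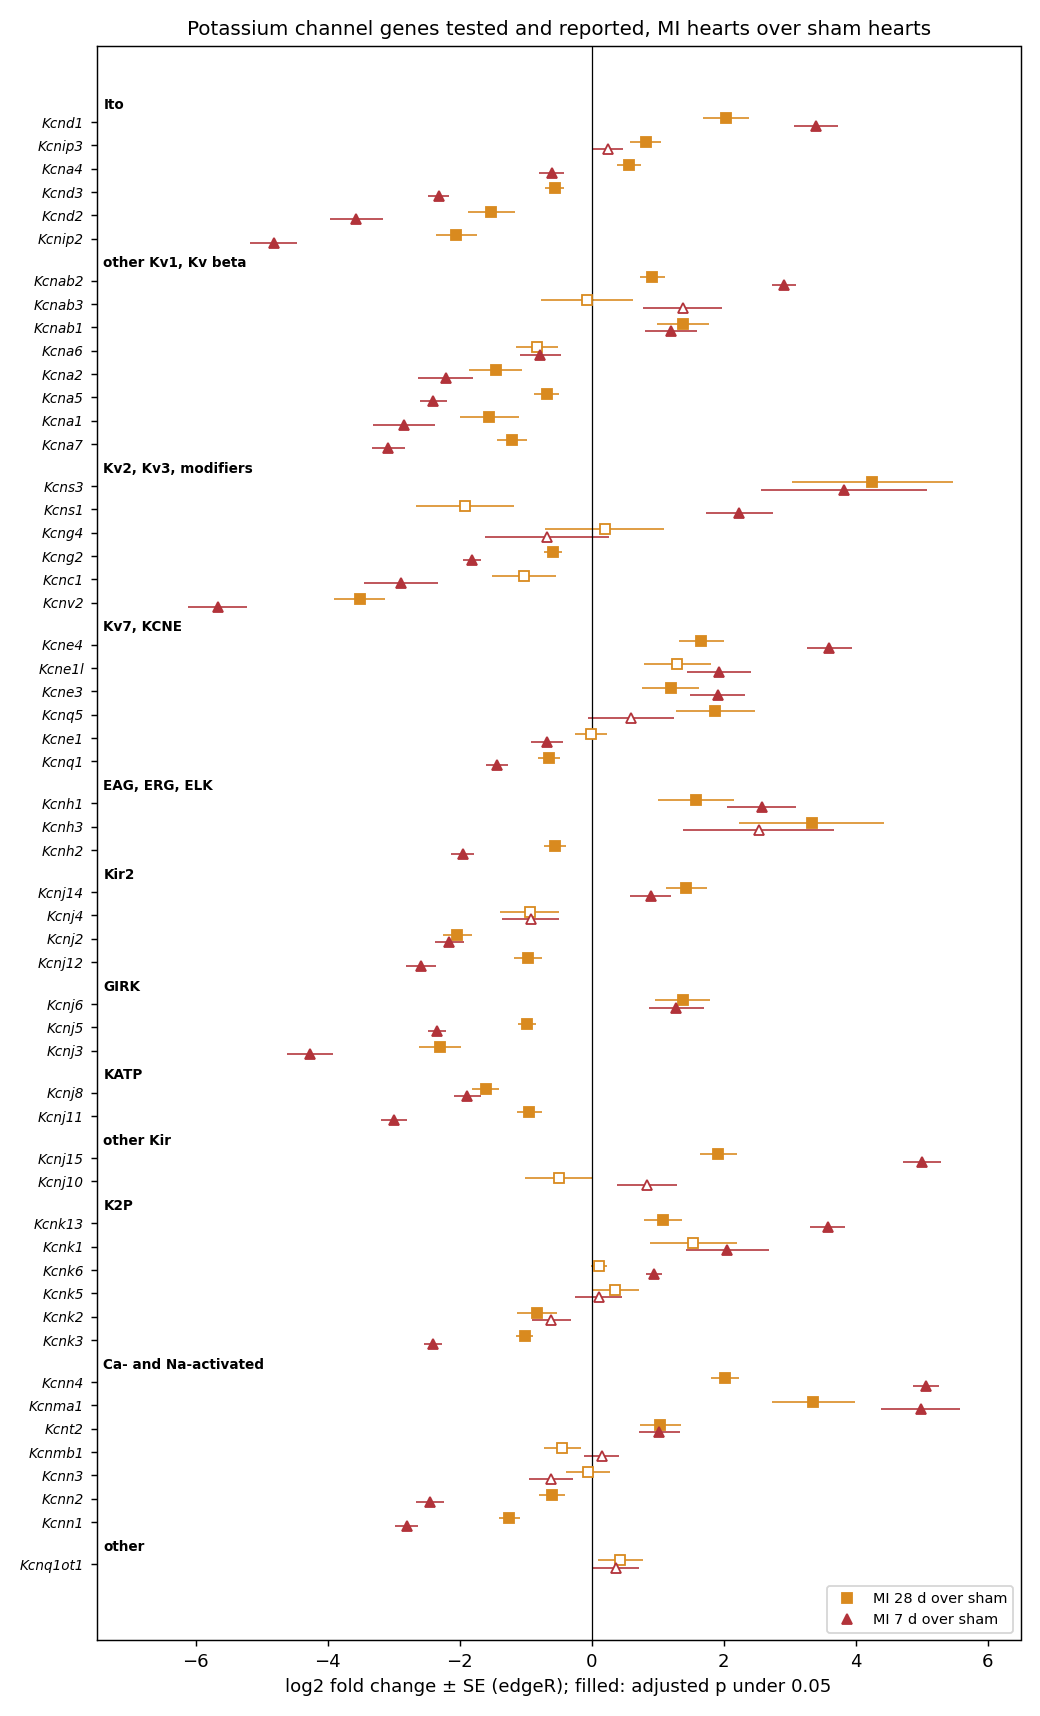
Log2 fold change (x axis, edgeR, whiskers SE) of the tested and reported potassium channel genes at 28 d (orange squares) and 7 d (red triangles) over sham, grouped by role; filled symbols have an adjusted p under 0.05. In the Ito group Kcnip2 and Kcnd2 lie far left at 7 d (-4.82 and -3.56) and Kcnd1 far right (3.40), and for most genes left of 0 the 28 d symbol lies nearer to 0.

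The transient outward current is built from Kv4 pores (Kcnd2, Kcnd3), the cytosolic subunit KChIP2 (Kcnip2) and, for its slow form, the pore Kcna4. Among the 6 tested genes of the Ito list, 3 were higher and 3 lower at 28 d against sham, and 1 was higher and 4 lower at 7 d. Kcnip2, whose loss removes most of Ito in mice, stood at 104, 49.7 and 41.4 CPM in the MI 28 d hearts, 11.9, 9.01 and 7.65 CPM in the MI 7 d hearts and 266, 268 and 272 CPM in the sham hearts. The groups were far apart, and MI 28 d replicate 1 lay well above the other 2 MI 28 d hearts. Its level was 4.13-fold lower than sham at 28 d, a log2 fold change of -2.05 ± 0.31 (SE, edgeR adjusted p = 0.000511), and 28.2-fold lower at 7 d, with -4.82 ± 0.35 (SE, edgeR adjusted p = 1.49e-06). Kcnd2, the main ventricular Kv4 pore of rodents, read 18.8, 6.89 and 7.94 CPM at 28 d, 3.801, 2.43 and 1.88 CPM at 7 d and 31.8, 28.9 and 35.4 CPM in sham. Here too the groups did not overlap, and the same MI 28 d replicate was highest of its group. Kcnd2 had a log2 fold change of -1.52 ± 0.36 (SE, edgeR adjusted p = 0.00566) at 28 d and -3.56 ± 0.40 (SE, edgeR adjusted p = 2.34e-05) at 7 d. Kcnd3, the other Kv4 pore, had 14.998, 17.2 and 19.6 CPM at 28 d, 4.33, 6.19 and 4.81 CPM at 7 d and 26.8, 24.7 and 25.01 CPM in sham. MI 28 d replicate 3, the lowest MI 28 d heart for Kcnip2, was the highest for Kcnd3. Kcnd3 differed from sham by -0.56 ± 0.14 (SE, edgeR adjusted p = 0.008504) at 28 d and -2.32 ± 0.15 (SE, edgeR adjusted p = 8.70e-07) at 7 d on the log2 scale. Kcnd3 lost its 28 d call with scaling by library size alone (edgeR adjusted p = 0.129).

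Because Kcnip2 and Kcnd2 had the steepest losses of the Ito genes, the 250 bases before their RefSeq start sites (GRCm38.p6) are shown, with matches to the GC box letters GGGCGG on either strand in capitals. The Kcnip2 window lies at chr19:45816064-45816313 on the minus strand of chromosome 19 and the Kcnd2 window at chr6:21215096-21215345 on the plus strand of chromosome 6, both directly upstream of protein-coding genes.
Kcnip2: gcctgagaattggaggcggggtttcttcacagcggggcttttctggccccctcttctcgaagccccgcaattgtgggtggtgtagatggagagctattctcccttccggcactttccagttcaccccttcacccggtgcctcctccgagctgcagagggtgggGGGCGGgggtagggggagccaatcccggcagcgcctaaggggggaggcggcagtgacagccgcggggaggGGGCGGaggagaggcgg
Kcnd2: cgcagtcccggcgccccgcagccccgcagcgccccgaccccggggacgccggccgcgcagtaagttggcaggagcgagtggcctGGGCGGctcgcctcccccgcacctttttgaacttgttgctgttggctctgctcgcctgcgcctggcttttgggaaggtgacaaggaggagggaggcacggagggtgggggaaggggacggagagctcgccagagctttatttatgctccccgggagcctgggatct
Both windows are rich in G and C (66.8% and 68.8%). The search also covered the letters of AP-1 (TGANTCA), a PU.1 core (GAGGAAG), an MCAT element (CATTCC), MEF2 (CTANNNNTAG) and a TATA box (TATAAA) on both strands, and found none of these in either window. Of 32851 mouse promoter windows of the same length, 32.7% held the GC box letters, 6.75% AP-1, 10.6% the PU.1 core, 12.6% MCAT, 3.2% MEF2 and 12.4% the TATA letters. A match is a run of letters and not a site shown to be bound.

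Kcna4 took its own course. It read 5.11, 5.58 and 4.52 CPM in the MI 28 d hearts, 2.45, 2.23 and 2.02 CPM in the MI 7 d hearts and 3.402, 3.86 and 2.96 CPM in the sham hearts. The 3 groups did not overlap, with sham in the middle. Its log2 fold change was 0.57 ± 0.18 (SE, edgeR adjusted p = 0.0234) at 28 d against sham, -0.61 ± 0.19 (SE, edgeR adjusted p = 0.0144) at 7 d against sham and 1.18 ± 0.18 (SE, edgeR adjusted p = 0.000458) at 28 d against 7 d. Kcna4 lost its 28 d call without MI 28 d replicate 2 or sham replicate 1 or 3 (edgeR adjusted p 0.0656 to 0.0925). Kcna4 also lost it in DESeq2 (adjusted p = 0.0582). Kcna4 lost its 7 d call without sham replicate 2 (edgeR adjusted p = 0.05395). Kcna4 also lost it with scaling by library size alone (edgeR adjusted p = 0.198). The difference between 28 d and 7 d passed in every alternative run. Kcnd1, a Kv4 pore expressed outside ventricular muscle as well, was at 2.26, 2.11 and 3.59 CPM at 28 d, 7.698, 7.33 and 5.49 CPM at 7 d and 0.698, 0.368 and 0.845 CPM in sham. All MI hearts were above all sham hearts. Kcnd1 rose by 2.04 ± 0.35 (SE, edgeR adjusted p = 0.00101) at 28 d and 3.40 ± 0.33 (SE, edgeR adjusted p = 9.74e-06) at 7 d on the log2 scale, while Kcnd2 and Kcnd3 fell. Kcnip3, a KChIP that is also known as the repressor DREAM, passed at 28 d, with a log2 fold change of 0.82 (edgeR adjusted p = 0.0138), against 0.25 at 7 d (adjusted p = 0.347). Between the times the difference did not pass (edgeR adjusted p = 0.0507). Kcnip3 did pass between 28 d and 7 d without MI 7 d replicate 3 (edgeR adjusted p = 0.0422). Kcnip3 also passed with a stricter filter (edgeR adjusted p = 0.0499) and with the replicate number as a block (edgeR adjusted p = 0.0466). Kcnip3 lost its 28 d call without sham replicate 2 (edgeR adjusted p = 0.0566). Kcnip3 also lost it without the Adipoq-rich libraries (edgeR adjusted p = 0.0531).

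**Figure D3:**
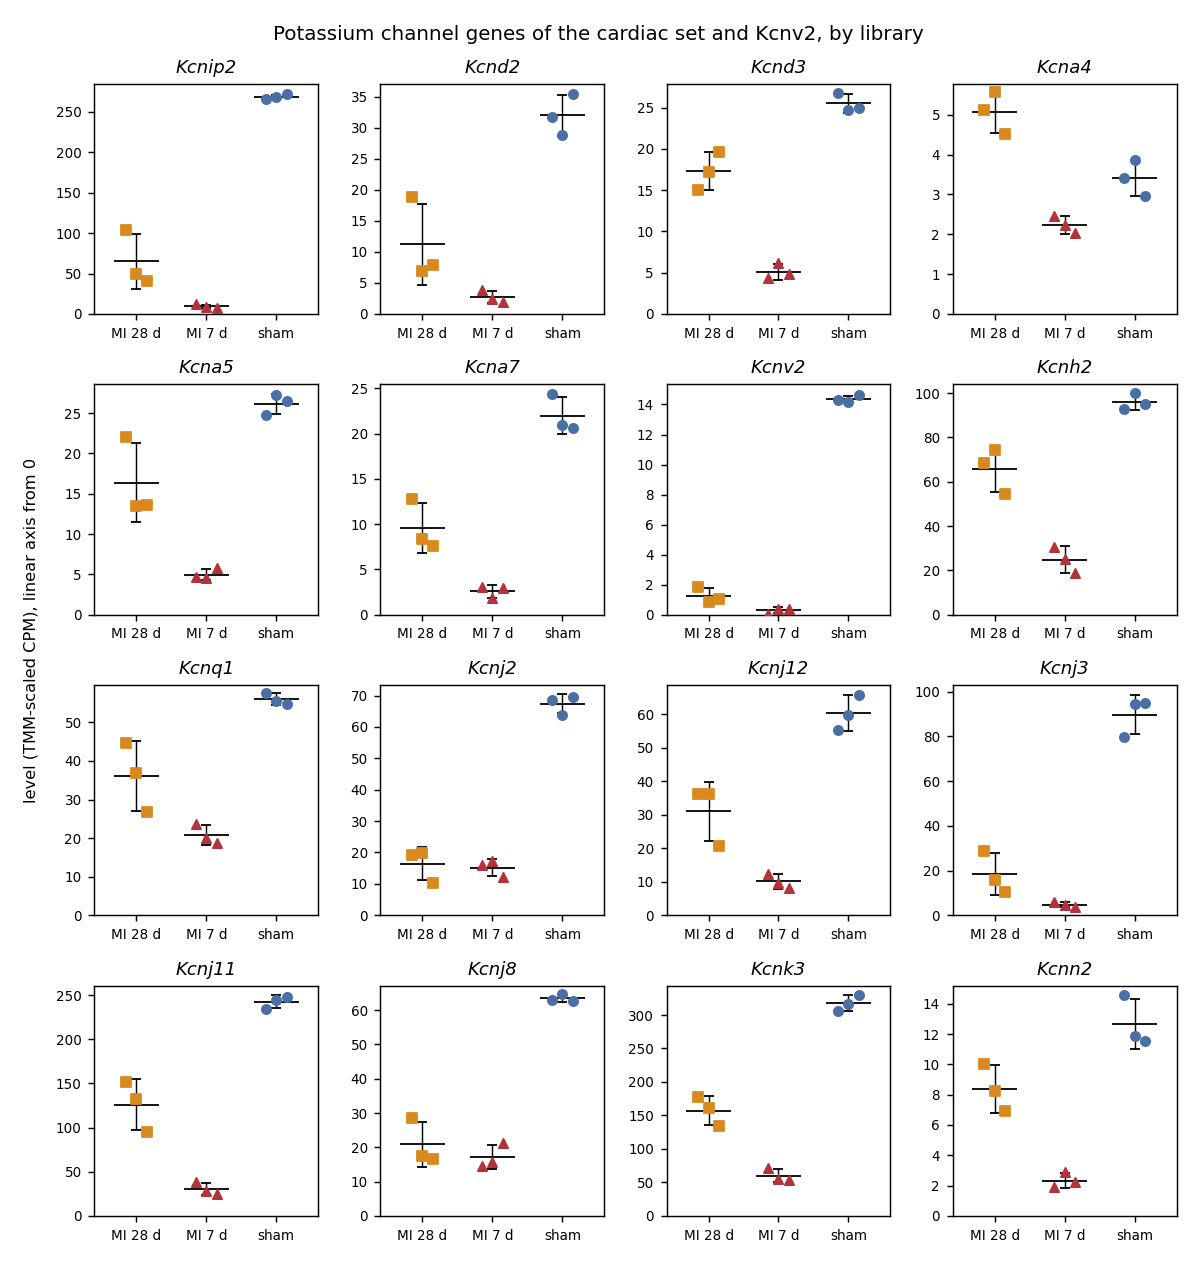
Level by library (TMM-scaled CPM, linear axis from 0) of potassium channel genes of cardiomyocyte currents and of Kcnv2; each symbol is 1 heart, bars are mean ± SD, with MI 28 d at the left, MI 7 d in the middle and sham at the right. In all panels but Kcna4 the sham hearts lie above every MI heart.

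Subunit proportions within Ito also differed between groups, as ratios of CPM within a library. The ratio of Kcnip2 to Kcnd2 was 5.55, 7.22 and 5.22 in the MI 28 d hearts, 3.13, 3.71 and 4.08 in the MI 7 d hearts and 8.38, 9.29 and 7.67 in the sham hearts. Every MI heart was below every sham heart (exact permutation test, two-sided, p = 0.1 at each time, the smallest p that 3 against 3 allows). The ratio of Kcna4 to Kcnd2 was 0.272, 0.811 and 0.569 at 28 d, 0.646, 0.918 and 1.08 at 7 d and 0.107, 0.134 and 0.0835 in sham, again with no overlap of MI and sham hearts (p = 0.1, exact permutation test, at each time). For Kcnd3 to Kcnd2 the values were 0.799, 2.505 and 2.47 at 28 d, 1.14, 2.55 and 2.56 at 7 d and 0.843, 0.857 and 0.706 in sham. This ratio was higher in 5 of 6 MI hearts than in any sham heart, while MI 28 d replicate 1 lay within the sham range (exact permutation p = 0.3 at 28 d and 0.1 at 7 d).

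Among the other Kv1 pores and the Kvβ subunits, 2 of 8 tested genes were higher and 4 lower at 28 d against sham, and 2 were higher and 5 lower at 7 d. Kcna5, which carries part of the slowly inactivating Kv current of mouse ventricle, read 22.03, 13.5 and 13.6 CPM at 28 d, 4.62, 4.51 and 5.77 CPM at 7 d and 24.8, 27.2 and 26.5 CPM in sham. Lowest were the MI 7 d hearts, and MI 28 d replicate 1 came close to the sham hearts. It differed from sham by -0.68 ± 0.19 (SE, edgeR adjusted p = 0.0128) at 28 d and -2.40 ± 0.20 (SE, edgeR adjusted p = 3.44e-06) at 7 d on the log2 scale. Kcna5 lost its 28 d call with scaling by library size alone (edgeR adjusted p = 0.0514). Kcna7, a Kv1 pore of heart and skeletal muscle, was at 12.7, 8.37 and 7.59 CPM at 28 d, 3.08, 1.78 and 2.89 CPM at 7 d and 24.3, 20.97 and 20.6 CPM in sham. The groups were again apart, with log2 fold changes of -1.20 ± 0.23 (SE, edgeR adjusted p = 0.001797) at 28 d and -3.08 ± 0.25 (SE, edgeR adjusted p = 2.65e-06) at 7 d.

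The neuronal Kv1 pores Kcna1 and Kcna2 were lower at both times. Kcna1 read 0.796, 1.43 and 3.71 CPM at 28 d, 0.674, 0.9902 and 0.76996 CPM at 7 d and 6.19, 5.701 and 5.66 CPM in sham. Its highest MI value was in MI 28 d replicate 3, and without that heart the MI 28 d hearts were near those of 7 d. Against sham it changed by -1.55 ± 0.44 (SE, edgeR adjusted p = 0.0145) at 28 d and -2.84 ± 0.47 (SE, edgeR adjusted p = 0.000379) at 7 d. Between 28 d and 7 d it was 1.29 ± 0.48 (SE, edgeR adjusted p = 0.0442). Kcna1 lost its call between 28 d and 7 d without MI 28 d replicate 3 or MI 7 d replicate 1, 2 or 3 or sham replicate 1, 2 or 3 (edgeR adjusted p 0.0662 to 0.243). Kcna1 also lost it with scaling by library size alone (edgeR adjusted p = 0.0667), in a fit of only the libraries compared (edgeR adjusted p = 0.102), with the replicate number as a block (edgeR adjusted p = 0.06298), without the Adipoq-rich libraries (edgeR adjusted p = 0.121) and in limma voom (adjusted p = 0.117). Kcna2 was at 0.995, 1.36 and 2.55 CPM at 28 d, 1.15, 0.545 and 1.203 CPM at 7 d and 5.85, 4.41 and 3.296 CPM in sham. No MI heart reached the sham range, and the log2 fold change was -1.45 ± 0.40 (SE, edgeR adjusted p = 0.0127) at 28 d and -2.21 ± 0.41 (SE, edgeR adjusted p = 0.000818) at 7 d. Kcna2 lost its 28 d call without sham replicate 1 (edgeR adjusted p = 0.0545). The Schwann cell and neuron markers (10 genes) summed to 37.9, 55.3 and 184.7 CPM at 28 d, 27.7 to 37.5 CPM at 7 d and 25.7 to 31.1 CPM in sham. MI 28 d replicate 3, the highest for these markers, was also the highest MI 28 d heart for Kcnh3, Kcng4 and Kcnab1, among others. The part of nerve tissue in these levels was not tested. Kcna3, the Kv1 pore of lymphocytes and macrophages, had too few counts for the main test, with 3, 6 and 6 counts at 28 d, 12, 28 and 12 at 7 d and 2, 3 and 3 in sham. Counts were highest in the MI 7 d libraries, and with no filter on low counts the log2 fold change at 7 d against sham was 1.82 (edgeR adjusted p = 0.0147).

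Of the 3 cytosolic Kvβ subunits, which bind Kv1 pores and modify their inactivation and trafficking, Kcnab1 and Kcnab2 were higher at both times and Kcnab3 did not pass at 28 d (-0.07, edgeR adjusted p = 0.9399) or at 7 d (1.38, adjusted p = 0.0584). Kcnab3 did pass at 7 d against sham without sham replicate 2 (edgeR adjusted p = 0.00386). Kcnab3 also passed with scaling by library size alone (edgeR adjusted p = 0.0252), in a fit of only the libraries compared (edgeR adjusted p = 0.0473) and in limma voom (adjusted p = 0.0201). Kcnab2 read 5.44, 4.901 and 6.605 CPM at 28 d, 21.7, 22.8 and 23.2 CPM at 7 d and 3.75, 2.94 and 2.28 CPM in sham. Levels of the MI 7 d hearts were close together and far above the rest. Kcnab2 changed by 0.92 ± 0.19 (SE, edgeR adjusted p = 0.002701) at 28 d, 2.91 ± 0.18 (SE, edgeR adjusted p = 6.74e-07) at 7 d and -2.00 ± 0.17 (SE, edgeR adjusted p = 1.59e-05) between 28 d and 7 d. Kcnab1 was at 2.72, 3.41 and 7.13 CPM at 28 d, 4.52, 2.97 and 4.23 CPM at 7 d and 2.18, 1.29 and 1.61 CPM in sham. All MI hearts were above sham, with MI 28 d replicate 3 the highest. It rose by 1.38 ± 0.39 (SE, edgeR adjusted p = 0.0139) at 28 d and 1.20 ± 0.39 (SE, edgeR adjusted p = 0.0181) at 7 d on the log2 scale. Kcnab1 lost its 28 d call without sham replicate 2 or 3 (edgeR adjusted p 0.0501 to 0.0568). Kcnab1 lost its 7 d call without MI 7 d replicate 1 or sham replicate 2 or 3 (edgeR adjusted p 0.0547 to 0.0687).

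Of 8 tested Kv2, Kv3 and silent modifier subunits, 1 was higher and 4 were lower at 28 d against sham, and 2 were higher and 5 lower at 7 d. Kcnv2, a silent subunit that forms channels only together with Kv2 pores, had the largest fall of the family against sham at both times by point estimate. It read 1.86, 0.868 and 1.04 CPM in the MI 28 d hearts, 0.0481, 0.396 and 0.385 CPM in the MI 7 d hearts and 14.3, 14.2 and 14.6 CPM in the sham hearts. The MI 7 d libraries held 1, 8 and 8 counts, close to none, while the sham hearts were nearly equal to each other. On the log2 scale Kcnv2 changed by -3.52 ± 0.38 (SE, edgeR adjusted p = 0.000108) at 28 d, -5.66 ± 0.45 (SE, edgeR adjusted p = 2.28e-06) at 7 d and 2.15 ± 0.49 (SE, edgeR adjusted p = 0.00459) between them. The silent subunit Kcng2, by contrast, kept more of its level, with 94.9 ± 16.5 CPM at 28 d, 40.6 ± 5.32 CPM at 7 d and 142 ± 2.97 CPM in sham (mean ± SD, n = 3). Its log2 fold change was -0.58 ± 0.13 (SE, edgeR adjusted p = 0.00492) at 28 d and -1.81 ± 0.14 (SE, edgeR adjusted p = 1.90e-06) at 7 d.

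Other members of that list were scarce. The Kv3 pore Kcnc1, best known from fast-firing neurons, had 10, 16 and 9 counts at 28 d, 4, 1 and 7 at 7 d and 20, 9 and 22 in sham, and was lower at 7 d than in sham (-2.89 ± 0.56 (SE, edgeR adjusted p = 0.000996)). The silent subunit Kcns1 had 2, 2 and 1 counts at 28 d, 57, 43 and 22 counts at 7 d and 3, 8 and 3 counts in sham. It rose at 7 d (log2 fold change 2.24 ± 0.51 (SE, edgeR adjusted p = 0.00266)) and was lower at 28 d than at 7 d (-4.16 ± 0.59 (SE, edgeR adjusted p = 0.000297)). Against sham the 28 d value was -1.92 (edgeR adjusted p = 0.0526). Kcns1 did pass at 28 d against sham without MI 7 d replicate 3 or sham replicate 3 (edgeR adjusted p 0.03201 to 0.0498). Kcns1 also passed with DESeq2-type size factors (edgeR adjusted p = 0.0482) and with the replicate number as a block (edgeR adjusted p = 0.0323). Kcns3, with 13, 5 and 16 counts at 28 d, 4, 6 and 22 at 7 d and 1, 0 and 0 in sham, was higher at both times. These levels rest on few counts and set no reliable fold. Kcns3 lost its 28 d call without sham replicate 2 or 3 (edgeR adjusted p 0.0508 to 0.0545). Kcns3 lost its 7 d call without MI 7 d replicate 3 or sham replicate 2 or 3 (edgeR adjusted p 0.0585 to 0.06401).

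Kv7 and ERG channels carry the delayed rectifier currents IKs and IKr, which are small in adult mouse ventricle and dominate repolarization in larger mammals. Of 7 tested Kv7 and KCNE genes, 3 were higher and 2 lower at 28 d against sham, and 3 were higher and 3 lower at 7 d. Kcnq1, the IKs pore, read 44.7, 36.8 and 26.7 CPM at 28 d, 23.8, 20.001 and 18.6 CPM at 7 d and 57.8, 55.6 and 54.7 CPM in sham. It was lower in every MI heart than in every sham heart, by -0.64 ± 0.17 (SE, edgeR adjusted p = 0.00949) at 28 d and -1.43 ± 0.17 (SE, edgeR adjusted p = 3.59e-05) at 7 d on the log2 scale. Its partner Kcne1 stood at 15.9, 18.7 and 9.91 CPM at 28 d, 10.5, 10.8 and 6.64 CPM at 7 d and 14.1, 14.6 and 15.9 CPM in sham. The MI 28 d hearts spread across the sham range, and the MI 7 d hearts lay below it. Kcne1 differed from sham by -0.01 ± 0.24 (SE, edgeR adjusted p = 0.9801) at 28 d and -0.67 ± 0.24 (SE, edgeR adjusted p = 0.0299) at 7 d. Kcne1 lost its 7 d call without MI 7 d replicate 3 or sham replicate 1, 2 or 3 (edgeR adjusted p 0.0504 to 0.0952). Kcne1 also lost it with scaling by library size alone (edgeR adjusted p = 0.192). Between 28 d and 7 d it differed by 0.67 ± 0.24 (SE, edgeR adjusted p = 0.0403). Kcne1 lost its call between 28 d and 7 d without MI 28 d replicate 1 or 2 or MI 7 d replicate 1 or 3 or sham replicate 1, 2 or 3 (edgeR adjusted p 0.0548 to 0.149). Kcne1 also lost it with scaling by library size alone (edgeR adjusted p = 0.0556), in a fit of only the libraries compared (edgeR adjusted p = 0.106) and in limma voom (adjusted p = 0.0575). The ratio of Kcne1 to Kcnq1 was 0.355, 0.508 and 0.372 at 28 d, 0.443, 0.5396 and 0.357 at 7 d and 0.245, 0.263 and 0.291 in sham, higher in all MI hearts (p = 0.1 at each time, exact permutation test).

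Kcnh2, the ERG pore of IKr, was at 68.4, 74.3 and 54.3 CPM at 28 d, 30.7, 24.9 and 18.7 CPM at 7 d and 92.7, 99.96 and 95.2 CPM in sham. The groups were apart, with log2 fold changes of -0.55 ± 0.17 (SE, edgeR adjusted p = 0.01901) at 28 d and -1.95 ± 0.17 (SE, edgeR adjusted p = 4.74e-06) at 7 d. Kcnh2 lost its 28 d call without sham replicate 2 (edgeR adjusted p = 0.0522). Kcnh2 also lost it with scaling by library size alone (edgeR adjusted p = 0.104). Of its relatives, the EAG pore Kcnh1 had 11, 10 and 5 counts at 28 d, 16, 26 and 25 at 7 d and 3, 1 and 2 in sham, and was higher at 28 d (1.58 ± 0.57 (SE, edgeR adjusted p = 0.0389)) and at 7 d (2.58 ± 0.52 (SE, edgeR adjusted p = 0.00129)). Kcnh1 lost its 28 d call without MI 28 d replicate 1 or 2 or MI 7 d replicate 2 or 3 or sham replicate 2 or 3 (edgeR adjusted p 0.0507 to 0.123). Kcnh1 also lost it in DESeq2 (adjusted p = 0.0901), with no filter on low counts (edgeR adjusted p = 0.0506), with the replicate number as a block (edgeR adjusted p = 0.0715), without the Adipoq-rich libraries (edgeR adjusted p = 0.0873) and in limma voom (adjusted p = 0.0706). The neuronal ELK pore Kcnh3 read 0.265, 0.868 and 4.35 CPM at 28 d, 0.529, 1.63 and 1.01 CPM at 7 d and 0.174, 0.276 and 0.0845 CPM in sham. Its 28 d level was set by replicate 3, and the MI 28 d and sham ranges overlapped. The log2 fold change was 3.34 ± 1.10 (SE, edgeR adjusted p = 0.0273) at 28 d and 2.53 ± 1.14 (SE, edgeR adjusted p = 0.0682) at 7 d. Kcnh3 lost its 28 d call without MI 28 d replicate 3 or sham replicate 1, 2 or 3 (edgeR adjusted p 0.0582 to 0.124). Kcnh3 also lost it without the Adipoq-rich libraries (edgeR adjusted p = 0.0627). Kcnh3 did pass at 7 d against sham without MI 28 d replicate 1 or 3 (edgeR adjusted p 0.00723 to 0.0254). Kcnh3 also passed in DESeq2 (adjusted p = 0.0221), with scaling by library size alone (edgeR adjusted p = 0.0455), with the replicate number as a block (edgeR adjusted p = 0.0365), without the Adipoq-rich libraries (edgeR adjusted p = 0.00791) and in limma voom (adjusted p = 0.0149). Without MI 28 d replicate 3 its log2 fold change at 28 d was 1.66.

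Kcne4, a β subunit that inhibits Kv7 and Kv1 channels, was higher at both times. It read 14.3, 17.9 and 6.78 CPM at 28 d, 60.2, 48.96 and 39.7 CPM at 7 d and 4.62, 3.402 and 4.23 CPM in sham. All MI hearts were above all sham hearts. Kcne4 rose 3.17-fold at 28 d (log2 fold change 1.66 ± 0.34 (SE, edgeR adjusted p = 0.00275)) and 12.1-fold at 7 d (3.60 ± 0.34 (SE, edgeR adjusted p = 7.48e-06)). Kcne3, an epithelial KCNE subunit, was at 0.995, 1.799 and 1.04 CPM at 28 d, 1.88, 1.63 and 2.79 CPM at 7 d and 0.698, 0.276 and 0.676 CPM in sham. MI hearts were above sham, with log2 fold changes of 1.20 ± 0.43 (SE, edgeR adjusted p = 0.0396) at 28 d and 1.91 ± 0.41 (SE, edgeR adjusted p = 0.00207) at 7 d. Kcne3 lost its 28 d call without MI 28 d replicate 2 or MI 7 d replicate 1 or sham replicate 1, 2 or 3 (edgeR adjusted p 0.0531 to 0.13996). Kcne3 also lost it in DESeq2 (adjusted p = 0.0585), with the replicate number as a block (edgeR adjusted p = 0.0627) and in limma voom (adjusted p = 0.0687).

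Inward rectifiers of the Kir2 family carry IK1, which holds the resting potential of ventricular muscle. Of the 4 tested, 1 was higher and 2 lower at each time against sham. Kcnj2, the main Kir2 pore of ventricle, read 19.05, 19.9 and 10.4 CPM at 28 d, 15.9, 17.3 and 12.1 CPM at 7 d and 68.6, 63.9 and 69.6 CPM in sham. The MI 28 d and MI 7 d ranges overlapped, and both lay far below sham. The log2 fold change was -2.04 ± 0.22 (SE, edgeR adjusted p = 0.000116) at 28 d and -2.16 ± 0.22 (SE, edgeR adjusted p = 1.35e-05) at 7 d, with 0.12 ± 0.22 (SE, edgeR adjusted p = 0.668) between the times. Kcnj2 did pass between 28 d and 7 d without MI 28 d replicate 3 (edgeR adjusted p = 0.0395). Kcnj12, the second ventricular Kir2 pore, was at 36.2, 36.04 and 20.7 CPM at 28 d, 12.3, 9.704 and 8.18 CPM at 7 d and 55.3, 59.9 and 65.8 CPM in sham. Unlike for Kcnj2, the MI 28 d hearts lay above the MI 7 d hearts. Kcnj12 differed from sham by -0.96 ± 0.21 (SE, edgeR adjusted p = 0.00396) at 28 d and -2.58 ± 0.23 (SE, edgeR adjusted p = 4.32e-06) at 7 d, and between the times by 1.62 ± 0.22 (SE, edgeR adjusted p = 0.000232). Kcnj14, a Kir2 pore described mainly in neurons, read 3.72, 3.47 and 3.998 CPM at 28 d, 3.75, 1.78 and 2.17 CPM at 7 d and 1.66, 1.195 and 1.27 CPM in sham. It was higher in all MI hearts, by 1.44 ± 0.31 (SE, edgeR adjusted p = 0.00354) at 28 d and 0.90 ± 0.31 (SE, edgeR adjusted p = 0.0239) at 7 d. Kcnj14 lost its 7 d call without MI 7 d replicate 1 or sham replicate 2 or 3 (edgeR adjusted p 0.0731 to 0.0858).

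Acetylcholine acts on heart rate through GIRK channels made of Kcnj3 and Kcnj5. Kcnj3 was at 28.7, 15.9 and 10.3 CPM in the MI 28 d hearts, 5.77, 4.65 and 3.51 CPM in the MI 7 d hearts and 79.9, 94.4 and 94.99 CPM in the sham hearts. The groups were widely apart, and MI 28 d replicate 1 was again the highest of its group. Its log2 fold change was -2.30 ± 0.31 (SE, edgeR adjusted p = 0.000328) at 28 d and -4.27 ± 0.35 (SE, edgeR adjusted p = 2.88e-06) at 7 d. Of the exon bases of Kcnj3, 31.1% overlap the antisense gene Gm26794, and since the strand setting of the counting is not known, reads of the 2 genes cannot be told apart there. Kcnj5 read 65.8, 76.9 and 52.95 CPM at 28 d, 27.4, 26.7 and 21.6 CPM at 7 d and 124, 127 and 133 CPM in sham. It fell less steeply than Kcnj3 did by point estimate, a difference that was not tested, with -0.97 ± 0.13 (SE, edgeR adjusted p = 0.0003498) at 28 d and -2.34 ± 0.14 (SE, edgeR adjusted p = 5.40e-07) at 7 d. Kcnj6, a neuronal GIRK pore, was scarce and higher at both times, at 0.682 to 1.06 CPM at 28 d, 0.743 to 0.866 CPM at 7 d and 0.184 to 0.507 CPM in sham. Kcnj6 lost its 28 d call without MI 28 d replicate 1 or sham replicate 1 or 2 (edgeR adjusted p 0.0545 to 0.0706). Kcnj6 also lost it in DESeq2 (adjusted p = 0.06203) and without the Adipoq-rich libraries (edgeR adjusted p = 0.223). Kcnj6 lost its 7 d call without sham replicate 1 or 2 (edgeR adjusted p 0.0638 to 0.0672). Kcnj6 also lost it in DESeq2 (adjusted p = 0.0636).

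KATP channels pair a pore, Kcnj11 in muscle cells or Kcnj8 in vascular smooth muscle and pericytes, with a sulfonylurea receptor. Kcnj11 stood at 152, 132 and 94.5 CPM at 28 d, 38.5, 27.97 and 24.98 CPM at 7 d and 235, 245 and 248 CPM in sham. All 3 groups were apart, with log2 fold changes of -0.95 ± 0.19 (SE, edgeR adjusted p = 0.00231) at 28 d, -2.99 ± 0.20 (SE, edgeR adjusted p = 9.77e-07) at 7 d and 2.05 ± 0.20 (SE, edgeR adjusted p = 3.17e-05) between the times. Kcnj8 was at 28.5, 17.5 and 16.6 CPM at 28 d, 14.7, 15.7 and 21.2 CPM at 7 d and 62.9, 64.6 and 62.8 CPM in sham. The MI groups overlapped each other and lay below sham. For Kcnj8 the log2 fold change was -1.61 ± 0.21 (SE, edgeR adjusted p = 0.000255) at 28 d, -1.88 ± 0.21 (SE, edgeR adjusted p = 2.20e-05) at 7 d and 0.28 ± 0.21 (SE, edgeR adjusted p = 0.283) between the times. The smooth muscle and pericyte markers (10 genes) summed to 4786 to 5594 CPM at 28 d, 4557 to 5504 CPM at 7 d and 4071 to 4306 CPM in sham, and of these Rgs5, a pericyte marker, was the 1 that fell at both times (-1.22 at 28 d and -1.15 at 7 d). The endothelial markers (10 genes) summed to 772 to 1516 CPM at 28 d, 1099.8 to 1269 CPM at 7 d and 2402 to 2508 CPM in sham, with 8 lower at 28 d and 6 at 7 d against sham. The part of these cells in the Kcnj8 levels was not tested. The ratio of Kcnj8 to Kcnj11 was 0.188, 0.133 and 0.175 at 28 d, 0.381, 0.561 and 0.8497 at 7 d and 0.268, 0.264 and 0.253 in sham, so that it lay below sham at 28 d and above it at 7 d in all hearts (exact permutation p = 0.1 for each).

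Kcnj15, a Kir4 channel known from epithelia such as kidney and stomach, had the highest mean per kb of the family at 7 d. It read 16.5, 25.2 and 15.5 CPM in the MI 28 d hearts, 160.3, 213 and 113 CPM in the MI 7 d hearts and 5.496, 4.78 and 4.82 CPM in the sham hearts. The MI 7 d hearts spread widely but lay many times above all others, and the MI 28 d hearts stayed above sham. Kcnj15 rose 3.78-fold at 28 d (log2 fold change 1.92 ± 0.28 (SE, edgeR adjusted p = 0.000475)) and 32.2-fold at 7 d (5.01 ± 0.29 (SE, edgeR adjusted p = 4.29e-07)), and was lower at 28 d than at 7 d by -3.09 ± 0.25 (SE, edgeR adjusted p = 1.26e-05). Its relative Kcnj10, the glial Kir4 pore, had 10, 9 and 5 counts at 28 d, 24, 34 and 20 at 7 d and 13, 7 and 4 in sham, did not pass against sham at 28 d (edgeR adjusted p = 0.441) or at 7 d (0.122), and was lower at 28 d than at 7 d by -1.33 ± 0.46 (SE, edgeR adjusted p = 0.0319). Kcnj10 lost its call between 28 d and 7 d without MI 28 d replicate 2 or 3 or MI 7 d replicate 1 or 2 (edgeR adjusted p 0.05699 to 0.113). Kcnj10 also lost it without the Adipoq-rich libraries (edgeR adjusted p = 0.114) and in limma voom (adjusted p = 0.157). Kcnj10 did pass at 7 d against sham without sham replicate 1 (edgeR adjusted p = 0.0414). Kcnj10 also passed with scaling by library size alone (edgeR adjusted p = 0.0364). Since Kcnj15 had the highest mean per kb at 7 d, the 250 bases before its RefSeq start site are shown, at chr16:95257308-95257557 on the plus strand of chromosome 16 (GRCm38.p6), upstream of a protein-coding gene. No base is in capitals because none of the 6 motifs searched was found in the window, which says only that these letters are absent there.
Kcnj15: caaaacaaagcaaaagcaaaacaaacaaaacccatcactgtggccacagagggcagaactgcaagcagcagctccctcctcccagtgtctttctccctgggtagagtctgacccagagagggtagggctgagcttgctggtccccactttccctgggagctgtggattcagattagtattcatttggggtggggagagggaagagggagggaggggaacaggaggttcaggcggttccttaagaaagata

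Two-pore-domain channels give potassium leak currents. Of 6 tested, 1 was higher and 2 lower at 28 d against sham, and 3 were higher and 1 lower at 7 d. Kcnk3 (TASK-1), an acid-sensitive leak channel and the most abundant family member per kb in sham, read 177, 161 and 133 CPM at 28 d, 71.3, 55.4 and 53.9 CPM at 7 d and 307, 317 and 330.1 CPM in sham. The groups were well apart, with log2 fold changes of -1.02 ± 0.13 (SE, edgeR adjusted p = 0.000265) at 28 d and -2.40 ± 0.14 (SE, edgeR adjusted p = 4.28e-07) at 7 d. Kcnk2 (TREK-1), a stretch-activated leak channel, was at 3.19, 1.86 and 1.74 CPM at 28 d, 3.18, 2.92 and 1.78 CPM at 7 d and 4.45, 4.14 and 3.46 CPM in sham. Every MI heart was below every sham heart, and the 28 d comparison passed, with -0.83 ± 0.30 (SE, edgeR adjusted p = 0.0412) at 28 d and -0.61 ± 0.30 (SE, edgeR adjusted p = 0.08695) at 7 d; between 28 d and 7 d the difference was -0.22 ± 0.30 (SE, edgeR adjusted p = 0.561). Kcnk2 lost its 28 d call without MI 28 d replicate 2 or 3 or MI 7 d replicate 2 or sham replicate 1, 2 or 3 (edgeR adjusted p 0.0541 to 0.116). Kcnk2 also lost it with scaling by library size alone (edgeR adjusted p = 0.0959). Kcnk2 did pass at 7 d against sham without MI 28 d replicate 1 (edgeR adjusted p = 0.0475). Kcnk2 also passed in a fit of only the libraries compared (edgeR adjusted p = 0.04395), with the replicate number as a block (edgeR adjusted p = 0.0339) and in limma voom (adjusted p = 0.0262).

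The other two-pore channels that passed were higher at 7 d. Kcnk13 (THIK-1), which carries a resting potassium current in microglia, read 1.59, 1.43 and 2.55 CPM at 28 d, 9.33, 10.3 and 11.98 CPM at 7 d and 0.9597, 0.736 and 0.9296 CPM in sham. Its MI 7 d hearts were several times above the rest. Its log2 fold change was 1.08 ± 0.28 (SE, edgeR adjusted p = 0.00948) at 28 d and 3.58 ± 0.26 (SE, edgeR adjusted p = 1.56e-06) at 7 d. Kcnk13 lost its 28 d call without the Adipoq-rich libraries (edgeR adjusted p = 0.149). Kcnk6 (TWIK-2), a potassium efflux channel of macrophages, was at 11.3, 9.86 and 12.1 CPM at 28 d, 19.97, 21.04 and 18.4 CPM at 7 d and 8.99, 11.3 and 10.6 CPM in sham. It was higher at 7 d than in either other group, by 0.94 ± 0.12 (SE, edgeR adjusted p = 7.43e-05) against sham, and overlapped with sham at 28 d (0.11 ± 0.13 (SE, edgeR adjusted p = 0.476)). Kcnk6 did pass at 28 d against sham with scaling by library size alone (edgeR adjusted p = 0.0418). Kcnk1 (TWIK-1) was scarce, with 6, 7 and 17 counts at 28 d, 25, 21 and 8 at 7 d and 3, 2 and 2 in sham. It passed at 7 d, with 2.05 ± 0.63 (SE, edgeR adjusted p = 0.0138).

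Among 7 tested calcium- and sodium-activated channel genes, 3 were higher and 2 lower at each time against sham. Kcnn4 (KCa3.1), the intermediate-conductance channel of immune cells and proliferating fibroblasts, had the largest log2 rise of the family at 7 d by point estimate, within the error of those of Kcnj15 and Kcnma1. It read 3.05, 3.04 and 2.202 CPM in the MI 28 d hearts, 23.2, 24.4 and 21.03 CPM in the MI 7 d hearts and 0.785, 0.644 and 0.592 CPM in the sham hearts. Values at 7 d were close together, and no group overlapped another. Kcnn4 was 4.06-fold higher than sham at 28 d (log2 fold change 2.02 ± 0.21 (SE, edgeR adjusted p = 9.35e-05)) and 33.6-fold higher at 7 d (5.07 ± 0.20 (SE, edgeR adjusted p = 6.37e-08)). Kcnma1, the pore of the large-conductance BK channel of smooth muscle and fibroblasts, was at 2.19, 3.66 and 2.49 CPM at 28 d, 7.698, 13.9 and 4.28 CPM at 7 d and 0.436, 0.276 and 0.0845 CPM in sham. MI hearts lay above sham at both times, with MI 7 d replicate 2 far above the other 2 of its group. The log2 fold change was 3.36 ± 0.63 (SE, edgeR adjusted p = 0.00173) at 28 d, 4.99 ± 0.60 (SE, edgeR adjusted p = 3.82e-05) at 7 d and -1.63 ± 0.42 (SE, edgeR adjusted p = 0.00911) between the times. Kcnma1 lost its call between 28 d and 7 d in limma voom (adjusted p = 0.0637). Kcnmb1, the smooth muscle β subunit of BK, did not pass with 2.53 ± 0.839 CPM at 28 d, 3.82 ± 0.711 CPM at 7 d and 3.43 ± 0.3797 CPM in sham (mean ± SD, n = 3; edgeR adjusted p = 0.203 at 28 d and 0.623 at 7 d). Kcnt2, a sodium-activated channel, was higher by 1.04 ± 0.31 (SE, edgeR adjusted p = 0.0171) at 28 d and 1.03 ± 0.31 (SE, edgeR adjusted p = 0.01203) at 7 d. Kcnt2 lost its 28 d call without MI 28 d replicate 2 or sham replicate 1 or 3 (edgeR adjusted p 0.0504 to 0.065001).

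Of the 3 small-conductance (SK) channel genes, Kcnn1 and Kcnn2 were lower at both times. Kcnn1 read 13.1, 9.74 and 8.98 CPM at 28 d, 3.801, 3.37 and 3.61 CPM at 7 d and 27.1, 21.1 and 27.1 CPM in sham. The groups were apart, with log2 fold changes of -1.24 ± 0.16 (SE, edgeR adjusted p = 0.000264) at 28 d and -2.80 ± 0.17 (SE, edgeR adjusted p = 6.35e-07) at 7 d. Kcnn2, the SK pore most studied in heart, was at 10.02, 8.25 and 6.89 CPM at 28 d, 1.88, 2.87 and 2.21 CPM at 7 d and 14.6, 11.9 and 11.6 CPM in sham. It was lowest at 7 d, and MI 28 d replicate 1 came nearest to sham. Kcnn2 differed from sham by -0.60 ± 0.19 (SE, edgeR adjusted p = 0.0256) at 28 d and -2.45 ± 0.21 (SE, edgeR adjusted p = 3.80e-06) at 7 d. Kcnn2 lost its 28 d call without MI 28 d replicate 2 or 3 or sham replicate 1 (edgeR adjusted p 0.0618 to 0.0975). Kcnn2 also lost it with scaling by library size alone (edgeR adjusted p = 0.121). Kcnn3 did not pass at 28 d (-0.05, edgeR adjusted p = 0.899) or at 7 d (-0.62, adjusted p = 0.11998). Kcnn3 did pass at 7 d against sham without MI 28 d replicate 1 (edgeR adjusted p = 0.0368). Kcnn3 also passed in a fit of only the libraries compared (edgeR adjusted p = 0.0347).

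The 250 bases before the RefSeq start site of Kcnn4 are shown because its log2 rise at 7 d was the largest by point estimate, at chr7:24370013-24370262 on the plus strand of chromosome 7 (GRCm38.p6), directly upstream of the protein-coding gene. Capitals mark 1 match to the MCAT letters CATTCC and 1 to the GC box letters GGGCGG, each read on the opposite strand.
Kcnn4: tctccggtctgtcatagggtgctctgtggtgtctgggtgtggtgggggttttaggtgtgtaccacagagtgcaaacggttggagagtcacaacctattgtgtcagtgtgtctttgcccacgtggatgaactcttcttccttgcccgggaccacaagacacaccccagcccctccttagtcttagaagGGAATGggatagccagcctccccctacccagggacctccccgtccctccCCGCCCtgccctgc
The MCAT letters were in 6 of 15 windows of Kcn genes higher at 7 d and in 1 of 16 windows of those lower at 7 d, against 12.6% of all windows. The GC box letters were in 8 of 15 and 7 of 16, against 32.7% of all windows. For the AP-1 letters the counts were 1 of 15 and 0 of 16, and for the PU.1 core 1 and 1. The MEF2 and TATA letters were in 0 windows of either set. All 6 motifs were counted in these few windows, and no difference was tested. A promoter window was given for 72 of the 98 Kcn rows.

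**Figure D4:**
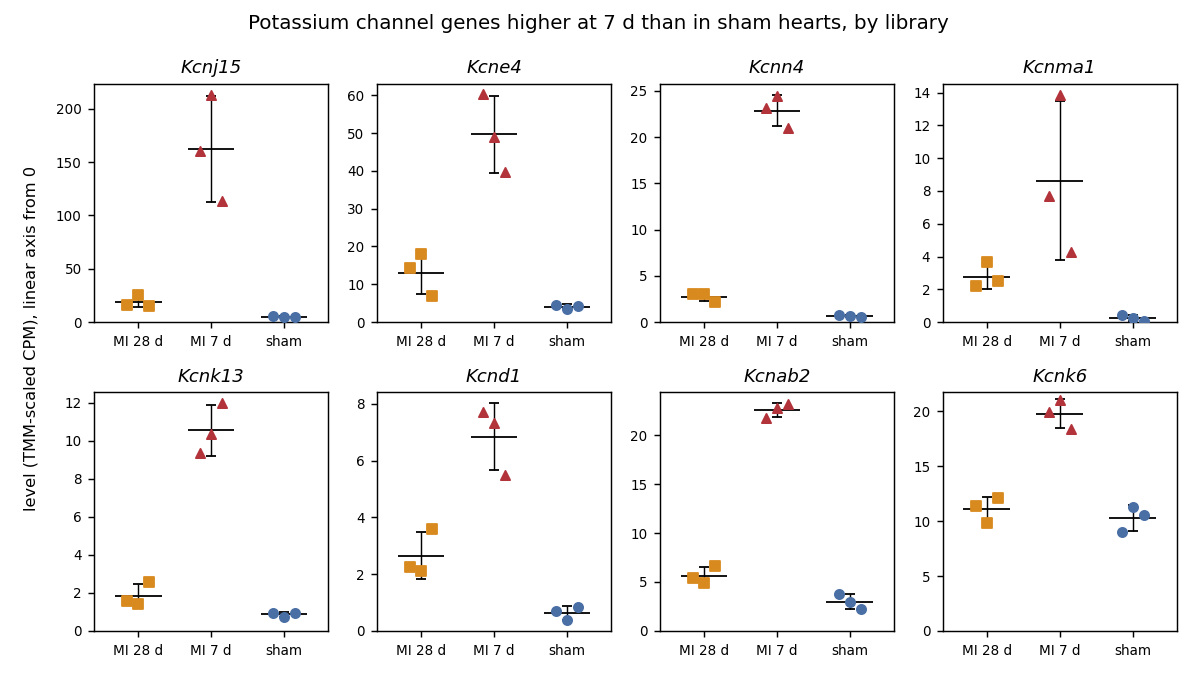
Level by library (TMM-scaled CPM, linear axis from 0) of 8 potassium channel genes higher at 7 d than in sham; each symbol is 1 heart, bars are mean ± SD, with MI 28 d at the left, MI 7 d in the middle and sham at the right. The MI 7 d hearts are the highest in every panel, and Kcnk6 at 28 d lies within the sham range or near it.

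Most members of cardiomyocyte currents fell together with the cardiomyocyte markers, so their levels were also taken relative to the summed CPM of the 20 markers in the same library, per 1000 CPM of that sum. Of these 20 markers, 16 were lower and none higher at 28 d against sham and all 20 were lower at 7 d. The MI and sham ranges overlapped for the ratio of Kcnk3, with 1.54, 1.796 and 1.94 at 28 d, 1.84, 1.77 and 1.74 at 7 d and 1.68, 1.76 and 1.79 in sham (exact permutation test, two-sided, p = 0.9 at 28 d and 0.5 at 7 d). The ratio of Kcnip2 was 0.909, 0.554 and 0.601 at 28 d, 0.307, 0.288 and 0.246 at 7 d and 1.46, 1.49 and 1.47 in sham. It was below sham in all MI hearts, as were the ratios of Kcnv2, Kcnj3 and Kcna7 (exact permutation p = 0.1 for each, the smallest the design allows). For Kcna7 the gap at 28 d was narrow, with 0.1112 in MI 28 d replicate 1 and 0.1117 in sham replicate 3. For Kcnj3 the values were 0.251, 0.178 and 0.1496 at 28 d, 0.149, 0.149 and 0.113 at 7 d and 0.437, 0.525 and 0.514 in sham. Kcnd2 lay below sham at 7 d in all hearts, while MI 28 d replicate 1 fell within the sham range, with 0.164, 0.0768 and 0.115 at 28 d, 0.0982, 0.0776 and 0.0604 at 7 d and 0.174, 0.1604 and 0.192 in sham (exact permutation p = 0.2 at 28 d and 0.1 at 7 d).

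Kcnj2 and Kcnj8 stood out at 28 d, below the sham ratio then and above it at 7 d. The ratio of Kcnj2 was 0.166, 0.222 and 0.151 at 28 d, 0.412, 0.554 and 0.389 at 7 d and 0.375, 0.355 and 0.377 in sham, and that of Kcnj8 was 0.249, 0.195 and 0.2404, 0.379, 0.502 and 0.683 and 0.344, 0.359 and 0.3401 in the same order (exact permutation p = 0.1 for each difference from sham). Kcnj11 was at 1.32, 1.47 and 1.37 at 28 d, 0.995, 0.894 and 0.804 at 7 d and 1.28, 1.36 and 1.34 in sham, below sham at 7 d (exact permutation p = 0.1) and overlapping it at 28 d (p = 0.4). Above the sham ratio in all MI hearts at both times were, among others, Kcna4, Kcne1, Kcnq1, Kcng2 and Kcnh2 (exact permutation p = 0.1 each). Kcna4 reached 0.0446, 0.0622 and 0.0656 at 28 d and 0.0634, 0.0712 and 0.06504 at 7 d, against 0.0186, 0.0215 and 0.01602 in sham, and Kcne1 reached 0.138, 0.208 and 0.144 at 28 d and 0.272, 0.345 and 0.214 at 7 d, against 0.0772, 0.0812 and 0.0861 in sham. A ratio depends on the markers chosen and shows unequal change of the members and the markers, not a level per cell.

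**Figure D5:**
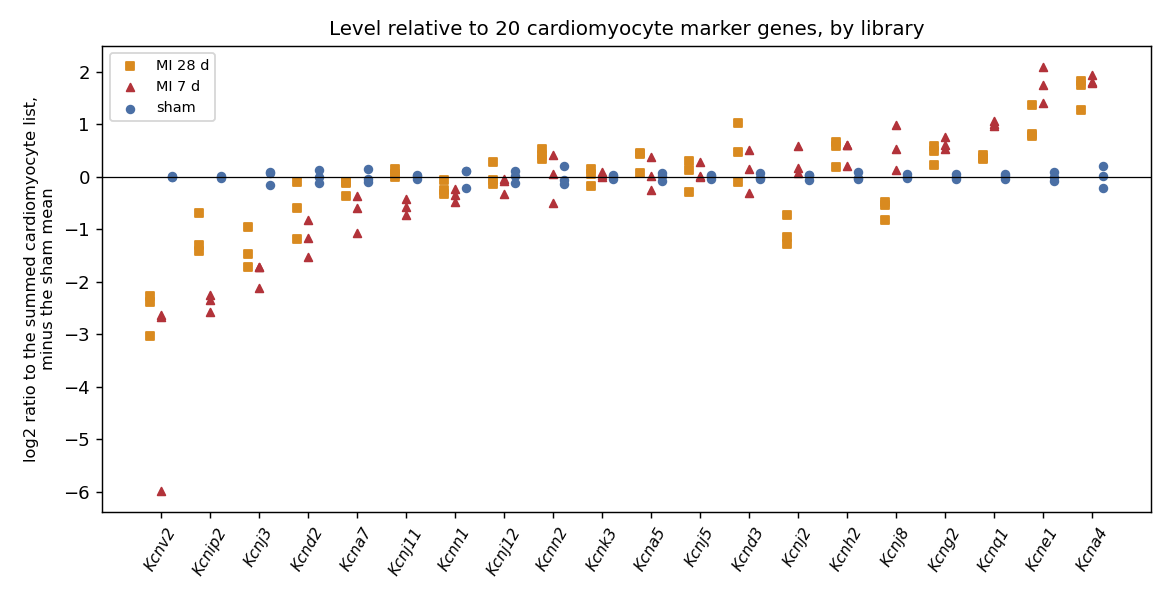
Log2 of the level relative to 20 summed cardiomyocyte marker genes, minus the mean of the sham hearts (y axis); each symbol is 1 heart of the MI 28 d (orange squares), MI 7 d (red triangles) or sham (blue circles) group, with genes ordered by the 7 d value. Kcnv2, Kcnip2 and Kcnj3, among others, lie below 0 in all MI hearts, Kcnk3 lies near 0, and Kcnq1, Kcne1 and Kcna4 lie above 0.

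Partners of potassium channels outside the Kcn symbols were read from a list of 29 genes, of which 25 were tested. At 28 d against sham 4 were higher and 11 lower (16% and 44%), against 29.5% and 25.6% of all genes tested. At 7 d 5 were higher and 17 lower (20% and 68%), against 39.0% and 35.4% of all genes. Between 28 d and 7 d 16 were higher and 5 lower (64% and 20%), against 29.1% and 26.1%. The sulfonylurea receptor Abcc9, which pairs with Kcnj11 and Kcnj8, had 266, 174 and 119 CPM at 28 d, 57.6, 91.8 and 78.5 CPM at 7 d and 626, 630.5 and 641 CPM in sham, lower by -1.77 ± 0.27 (SE, edgeR adjusted p = 0.000538) at 28 d and -3.06 ± 0.28 (SE, edgeR adjusted p = 5.96e-06) at 7 d. Its relative Abcc8 was at 53.9, 51.3 and 37.02 CPM at 28 d, 15.8, 13.3 and 12.8 CPM at 7 d and 64.3, 62.1 and 61.9 CPM in sham, a much smaller difference at 28 d (-0.41 ± 0.14 (SE, edgeR adjusted p = 0.0297)) than at 7 d (-2.17 ± 0.14 (SE, edgeR adjusted p = 9.14e-07)), and between the times it was 1.76 ± 0.14 (SE, edgeR adjusted p = 1.29e-05). The pacemaker channel genes Hcn2 and Hcn4 fell as well, by -1.38 and -1.55 at 28 d and -2.85 and -2.91 at 7 d on the log2 scale. Lrrc52, a BK channel γ subunit, was scarce and lower (-1.96 at 28 d and -3.36 at 7 d). The scaffold Dlg4 rose by 1.58 ± 0.21 (SE, edgeR adjusted p = 0.000313) at 28 d and 2.03 ± 0.21 (SE, edgeR adjusted p = 1.51e-05) at 7 d. Rgs6, which speeds the closing of GIRK channels, was higher at 28 d than at 7 d by 1.81 ± 0.18 (SE, edgeR adjusted p = 3.84e-05), and Rgs4, another regulator of G protein signals, was lower by -1.43 ± 0.18 (SE, edgeR adjusted p = 0.000143). Against sham, Rgs6 was higher at 28 d (0.78) and lower at 7 d (-1.03). Rgs4 was higher than sham at 7 d (1.28) and did not pass at 28 d (-0.15, edgeR adjusted p = 0.506).

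Between 28 d and 7 d, the largest rises were those of genes lower at 7 d than in sham. Kcnip2 was higher by 2.77 ± 0.33 (SE, edgeR adjusted p = 0.000102), Kcnv2 and Kcnj11 followed (2.15 and 2.05), Kcnd2 was higher by 2.04 ± 0.39 (SE, edgeR adjusted p = 0.00172), Kcnj3 by 1.97 ± 0.34 (SE, edgeR adjusted p = 0.0008803) and Kcna7 by 1.88 ± 0.25 (SE, edgeR adjusted p = 0.000183). Kcnn2 (1.85), Kcnd3 (1.76) and Kcna5 (1.72) were also among the 22 higher members. Lower at 28 d than at 7 d were 10 members, of which all but Kcnj10 had been higher at 7 d than in sham. The steepest were Kcns1 (-4.16) and Kcnj15 (-3.09), followed by Kcnn4 with -3.05 ± 0.16 (SE, edgeR adjusted p = 1.18e-06), Kcnk13 with -2.50 ± 0.23 (SE, edgeR adjusted p = 2.70e-05), Kcnab2 with -2.00, Kcne4 with -1.93 ± 0.30 (SE, edgeR adjusted p = 0.000474), Kcnma1 with -1.63, Kcnd1 with -1.36 ± 0.27 (SE, edgeR adjusted p = 0.00227), Kcnj10 with -1.33 and Kcnk6 with -0.83 ± 0.12 (SE, edgeR adjusted p = 0.000341). All 20 cardiomyocyte markers were higher and 8 of 10 fibroblast and 10 of 10 macrophage markers lower at 28 d than at 7 d, and their part in these differences was not tested.

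The 41 rows not tested in the main fit had at most 75 counts in total over the 9 libraries, and 6 of them had none. Among those with counts, Kcnb2, a Kv2 pore, had 3, 8 and 3 counts at 28 d and none at 7 d or in sham. Kcnq3, a neuronal Kv7 pore, had 0, 1 and 2 counts at 28 d, 5, 7 and 5 at 7 d and 0, 1 and 1 in sham. Kcnv1 had 0, 0 and 17 counts at 28 d, 1, 0 and 0 at 7 d and 0, 0 and 0 in sham, so nearly all were in MI 28 d replicate 3, and Kcnip1 had 0, 0 and 11 counts at 28 d, 0, 1 and 3 at 7 d and 2, 2 and 5 in sham. These examples were chosen after their counts were seen, and the main fit tested none of them. With no filter on low counts, Kcnb2 passed at 28 d against sham (log2 fold change 5.25, edgeR adjusted p = 0.0326). It also passed at 28 d against 7 d in that setting (5.25, edgeR adjusted p = 0.0149). Kcnc4, Kcnd3os and Kcnt1 also passed there in some comparisons. Such folds rest on few counts. Of the tested rows, Kcna6 shares 39.6% of its exon bases with the antisense gene Gm26673, and was lower at 7 d by -0.78 ± 0.31 (SE, edgeR adjusted p = 0.0448). Kcna6 lost its 7 d call without MI 28 d replicate 2 or MI 7 d replicate 1, 2 or 3 or sham replicate 1, 2 or 3 (edgeR adjusted p 0.0512 to 0.128). Kcna6 also lost it with scaling by library size alone (edgeR adjusted p = 0.241), with no filter on low counts (edgeR adjusted p = 0.0553) and with the replicate number as a block (edgeR adjusted p = 0.0686). The remaining members that passed were Kcne1l (a synonym of Kcne5) at 7 d, with 1.94 (edgeR adjusted p = 0.00475), and Kcnq5, a neuronal Kv7 pore, at 28 d, with 1.87 ± 0.60 (SE, edgeR adjusted p = 0.02405). Kcnq5 lost its 28 d call without MI 28 d replicate 2 or sham replicate 1 or 3 (edgeR adjusted p 0.0637 to 0.0937).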

How the data were processed

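RNA from mouse hearts (9 libraries, 3 per group) was sequenced in bulk. The values are the counts the authors deposited, whole-number reads per gene symbol, not normalized. Per the submitters' processing notes, Trim Galore, STAR, featureCounts and the genome build mm10 were used. Not given in the sources used here are the gene annotation, the strand setting and the handling of multi-mapping reads. The groups and replicate numbers come from the sample titles. Totals were 12351525 to 19238101 counts per library, and low levels carry a counting error that is large beside their values.

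Tests used R 4.3.3 with edgeR 4.0.16. The filterByExpr function, given the groups, a minimum count of 10 and a minimum total of 15, kept 14347 genes, and TMM set the scale. All 9 libraries entered a means model with two-sided quasi-likelihood tests. P-values were adjusted by Benjamini-Hochberg across the genes kept, with a threshold of 0.05. The script was first tested on simulated counts. "Rose", "fell", "higher" and "lower" in counts of genes refer to this threshold. Standard errors were obtained by dividing the size of the log2 fold change by the root of F. Ratios within a library were compared by exact two-sided permutation tests. Exon lengths and overlaps are those of GENCODE M21 and promoter windows those of RefSeq (GRCm38.p6); all 98 symbols matched. The alternatives included DESeq2 1.42.0 and limma 3.58.1 (voom).

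Members and gene lists were chosen with earlier results of these data known. Values in every library are given for a set of 21 cardiac channel genes where tested and, in each comparison, for the 8 largest rises and 8 largest falls among called genes averaging 1 CPM or more, and for partners up to 5 per comparison are named. Other members are given by counts or chosen after their values were seen. Some genes, some of the cardiac set included, are not reported here.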

Additional observations from a re-analysis of the deposited data

Results flagged for a closer look

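Kcna4, a pore of the slow transient outward current, was flagged because its effect against the same sham hearts differed between the times. It was higher than sham in all 3 MI 28 d hearts (log2 fold change 0.57 ± 0.18 (SE, edgeR adjusted p = 0.0234)) and lower than sham in all 3 MI 7 d hearts (-0.61 ± 0.19 (SE, edgeR adjusted p = 0.0144)). The test of the difference itself, 28 d against 7 d, gave 1.18 ± 0.18 (SE, edgeR adjusted p = 0.000458). Passing this test was part of the rule for the flag, so it adds no separate support. The 28 d call was lost without MI 28 d replicate 2 or sham replicate 1 or 3 (edgeR adjusted p 0.0656 to 0.0925). In DESeq2 it was lost too (adjusted p = 0.0582). The 7 d call was lost without sham replicate 2 (edgeR adjusted p = 0.05395) and with scaling by library size alone (edgeR adjusted p = 0.198). With the sham libraries summed to 1, neither call against sham was kept, and the log2 fold changes were 0.54 at 28 d and -0.63 at 7 d. Relative to the summed cardiomyocyte markers, Kcna4 was above sham at both times. The mean ratio was 0.0575 at 28 d, 0.0666 at 7 d and 0.0187 in sham, so the opposite directions depend on the scale used. Groups of 3 libraries are too small to tell an outlying sample from the spread of its group.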

How the results depend on the processing

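Of 119 calls of single Kcn genes over the 3 comparisons, 78 were kept under every alternative run, 41 were lost under at least 1, and none reversed. Counts of higher and lower genes stayed within 1.5 times under DESeq2, DESeq2-type size factors, scaling by library size alone, no filter, the replicate block, fits without the third group, limma voom and leaving out the Adipoq-rich libraries. The exceptions were as follows. Kcng4, not called at first, became lower at 28 d against sham without MI 28 d replicate 3 (log2 fold change -2.44, against 0.20) or without the Adipoq-rich libraries (-2.50), and read 0.70 without MI 28 d replicate 2. At 28 d against 7 d it read -1.76 without replicate 3 and 1.38 without replicate 2. A stricter filter left 11 higher genes at 7 d against sham, from fewer genes tested. At 28 d against sham, an adjusted p under 0.01 left 8 higher genes, and summing the sham libraries to 1 left 6 higher and 11 lower. Leaving out 1 library at a time gave 11 to 18 higher and 21 to 25 lower genes at 28 d against sham, 16 to 20 and 25 to 29 at 7 d against sham, and 20 to 24 and 9 to 12 at 28 d against 7 d; the lowest, 11, came without sham replicate 2 or 3. Scaling by library size alone moved the median log2 fold change of all genes by 0.25 at 28 d and 0.33 at 7 d and ended 10 calls. With the cardiomyocyte list summarised by its geometric mean, an alternative added after seeing the data, signs changed only for small ratio differences.

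Replicate numbers are shared by the groups. The deviations of libraries with the same number correlated at -0.0245 to 0.021 in pairs with sham. Between 28 d and 7 d the correlations were -0.091, 0.262 and 0.304 for replicates 1, 2 and 3. They were not over 0.1 in every pair, so the numbers were not taken to pair the hearts, though replicates 2 and 3 of the MI groups shared some deviation. With the replicate number as a block, 16 genes were higher and 25 lower at 28 d against sham, 19 and 27 at 7 d against sham, and 22 and 10 at 28 d against 7 d. The low spread of the sham libraries, whose cause was not tested, and low counts set the limits of the 28 d calls.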
